A study of Mus musculus with 14 samples.

Results

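Primary granule genes, 5 in number, were followed in cultured mouse erythroid progenitors: Mpo, Elane, Prtn3, Ctsg and Ms4a3. They were chosen by name, as genes that promyelocytes, early cells of the granulocyte lineage, use to fill and mark their primary (azurophil) granules, and all 5 were listed in both sets of libraries, among 23599 symbols used for the OB set and 54632 for the PD set. RNA was sequenced in 12 libraries of BFU-E (cells of the burst-forming unit-erythroid, an early red cell progenitor) isolated from C57BL/6 fetal liver and cultured in StemSpan SFEM II medium. The OB set holds 3 libraries of cells given compound OB at 100 µM and 3 of its own DMSO controls. The PD set holds 3 libraries of cells given compound PD at 3 nM and 3 of its own DMSO controls. The labels record no genetic change in any group, and they give neither the gate used to isolate the cells nor the length of culture. They do not say that replicates came from separate cultures or animals, so p-values measure the spread between these libraries, which may be technical. A CREB immunoprecipitation and its input, the series' 2 chromatin samples, are not analysed here.

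Primary granules are the earliest granules of a developing neutrophil. They are packed at the promyelocyte stage, and transcription of their contents stops as the cell goes on to make secondary granules, so these transcripts mark early granulocytes and the granulocyte and monocyte progenitors before them rather than mature neutrophils. Myeloperoxidase (Mpo) is a heme enzyme that makes hypochlorous acid from hydrogen peroxide and chloride. Neutrophil elastase (Elane), proteinase 3 (Prtn3) and cathepsin G (Ctsg) are related serine proteases activated by the dipeptidyl peptidase Ctsc. Elastase is stored on the proteoglycan serglycin (Srgn). Ms4a3 is a membrane-spanning protein, not a granule enzyme, whose expression marks mouse granulocyte and monocyte progenitors. Fetal liver is a site of both red cell and granulocyte production, and the erythroid and granulocyte lineages share earlier progenitors.

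In GRCm38.p6, the assembly that mm10 names, RefSeq places Prtn3 on chromosome 10 at 79879667-79883174 and Elane at 79886312-79888216, with 3137 bases between them on the same strand. Mpo lies on chromosome 11 at 87793784-87804412, Ctsg on chromosome 14 at 56099885-56102574 and Ms4a3 on chromosome 19 at 11629499-11640851. All 5 are protein-coding. The promoters are shown because these genes were high and low in the same OB libraries, as described below. Each line gives the 250 bases before the RefSeq transcription start, 5′ to 3′ on the gene's own strand, from RefSeq on GRCm38.p6. Capitals mark GAGGAA, a core of the motif of the myeloid factor PU.1 (Spi1), and GGAAGT, a run of letters added to the search after these sequences were seen.
Mpo: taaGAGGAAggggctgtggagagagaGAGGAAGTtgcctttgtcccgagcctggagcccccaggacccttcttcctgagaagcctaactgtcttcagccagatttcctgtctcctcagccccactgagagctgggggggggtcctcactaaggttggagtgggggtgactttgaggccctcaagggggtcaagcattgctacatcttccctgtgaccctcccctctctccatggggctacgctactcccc
Elane: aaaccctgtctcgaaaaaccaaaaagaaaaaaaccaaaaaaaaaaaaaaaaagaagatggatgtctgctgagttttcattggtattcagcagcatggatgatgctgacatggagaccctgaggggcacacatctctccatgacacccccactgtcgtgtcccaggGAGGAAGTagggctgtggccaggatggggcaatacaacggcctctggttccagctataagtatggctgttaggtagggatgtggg
Prtn3: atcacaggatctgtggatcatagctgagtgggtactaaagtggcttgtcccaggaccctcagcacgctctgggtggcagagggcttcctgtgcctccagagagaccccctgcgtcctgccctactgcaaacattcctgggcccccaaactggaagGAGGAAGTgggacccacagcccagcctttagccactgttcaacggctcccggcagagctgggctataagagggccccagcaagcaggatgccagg
Ctsg: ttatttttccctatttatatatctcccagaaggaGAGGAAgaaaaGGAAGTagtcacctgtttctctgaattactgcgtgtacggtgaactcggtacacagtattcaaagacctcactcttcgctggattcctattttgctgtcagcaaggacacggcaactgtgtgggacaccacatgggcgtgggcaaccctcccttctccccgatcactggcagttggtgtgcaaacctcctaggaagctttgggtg
Ms4a3: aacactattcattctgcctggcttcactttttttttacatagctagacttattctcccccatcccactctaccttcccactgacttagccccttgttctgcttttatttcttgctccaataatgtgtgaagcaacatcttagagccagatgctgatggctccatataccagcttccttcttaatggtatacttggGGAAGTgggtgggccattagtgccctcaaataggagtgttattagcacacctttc

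The windows are chr11:87793534-87793783 for Mpo, chr10:79886062-79886311 for Elane and chr10:79879417-79879666 for Prtn3, all on the plus strand. They are chr14:56102575-56102824 for Ctsg and chr19:11640852-11641101 for Ms4a3, both on the minus strand. Motifs were searched on both strands. GAGGAA was present in 4 of the 5 windows, all but that of Ms4a3, and in 23.3% of 32851 RefSeq promoter windows of the same length. GGAAGT was present in 5 of 5 and in 19.7% of all windows. Because it was picked from these same sequences, its 5 of 5 is not a test of enrichment. In Mpo, Elane and Prtn3 a match of each overlaps the other as GAGGAAGT, which starts at -224 in Mpo, -85 in Elane and -95 in Prtn3, counted back from the base before the start. In Ctsg the matches are separate, GAGGAA at -216 and GGAAGT at -205, and in Ms4a3 GGAAGT stands alone at -55. AACNG, the core of the MYB motif, was in 4 of 5 windows and in 74.2% of all, so its presence separates these genes little from others. A C/EBP motif TTNNGNAA was in 1 of 5 (Ms4a3, where it overlaps GGAAGT) against 36.8% of all, and TGTGGT of the RUNX factors in 1 of 5 (Ctsg) against 14.0%. TATAAA was in 1 of 5 (Ctsg, on the opposite strand) against 12.4%. Neither the CREB motif TGACGTCA (1.55% of all windows) nor the shorter TGACG (17.8%) was in these 5 windows. These matches are letters in a short window, not sites of binding.

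Values are given as FPKM (fragments adjusted for transcript length and for the number mapped in a library), so levels of different genes can be set side by side within a library. The 2 sets were made with different annotations and scaled separately, and levels across them are given side by side only. OB libraries held 9933 to 10177 genes at or above 1 FPKM, and PD libraries 11448 to 12052. Replicate 1 of compound OB and replicate 1 of OB DMSO stood apart from the others. Their median absolute log2 difference over 7888 genes was 0.08 from each other, while OB DMSO replicate 1 was 0.28 from both other OB DMSO libraries, which were 0.11 from each other. Compound OB replicate 1 stood apart less. It was 0.18 and 0.23 from compound OB replicates 2 and 3, which were 0.09 from each other. Compound OB replicate 2 was 0.17 from OB DMSO replicate 2. PD DMSO replicate 1 also stood apart, at 0.42 from both other PD DMSO libraries, which were 0.17 from each other. Changes of the 5 genes and calls in the gene lists are given with and without these libraries. As to the labelled cell type, the erythroid factor Gata1 lay between 131.6 and 184.7 FPKM in OB libraries and between 132.3 and 142.3 in PD libraries, and 10 hepatocyte markers summed to at most 3.23 FPKM in OB libraries and 6.44 in PD libraries. In PD libraries 16 erythroid markers summed to between 2832 and 6582 FPKM, and 15 secondary and tertiary granule genes to between 11160 and 38240. Most of the latter sum was S100a8 and S100a9, genes of calcium-binding proteins. Whether the libraries held erythroid cells only was not tested. In bulk libraries fewer cells of a type and less RNA per cell cannot be told apart.

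Mpo was the most abundant of the 5 in every library. It had 56.52, 21.29 and 17.77 FPKM in compound OB replicates 1, 2 and 3, against 68.52, 12.58 and 13.03 in OB DMSO. With compound PD it had 932.52, 462.97 and 421.61 FPKM, against 428.14, 555.85 and 560.35 in PD DMSO. With either compound, replicate 1 was the highest of its group and the 2 groups of a set overlapped. Mpo stood between ranks 123 and 221 of all symbols with compound PD and between 170 and 197 in PD DMSO, among the most abundant transcripts of these libraries. Among OB libraries its rank ranged between 1841 and 4666 with compound OB and between 1555 and 5497 in OB DMSO.

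Elane had 17.94, 5.77 and 4.88 FPKM in compound OB replicates 1 to 3, against 20.14, 4.24 and 4.59 in OB DMSO. Its values were 225.95, 171.62 and 174.80 FPKM with compound PD, against 105.57, 121.50 and 134.57 in PD DMSO. The OB groups overlapped, while every compound PD library was above every PD DMSO library. Prtn3, the neighbour of Elane, had 34.82, 14.18 and 11.84 FPKM with compound OB, against 43.80, 9.15 and 9.75 in OB DMSO. With compound PD it had 699.62, 385.86 and 362.44 FPKM, against 261.79, 338.20 and 339.70 in PD DMSO. Again only the PD groups were separate, although the lowest compound PD library lay close to the highest PD DMSO library.

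Ctsg had 21.50, 7.34 and 7.59 FPKM with compound OB, against 28.38, 7.13 and 7.33 in OB DMSO. It had 258.22, 128.41 and 130.85 FPKM with compound PD, against 132.65, 188.00 and 164.89 in PD DMSO. Groups overlapped in both sets, and in the PD set replicate 1 was high with the compound while the other 2 compound libraries were below all 3 controls. Ms4a3, the least abundant of the 5, had 3.79, 1.5 and 1.09 FPKM with compound OB, against 5.21, 1.95 and 0.91 in OB DMSO. It had 151.70, 87.60 and 88.67 FPKM with compound PD, against 67.28, 68.72 and 79.59 in PD DMSO. The OB groups overlapped and the PD groups did not, with compound PD above.

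**Figure D1:**
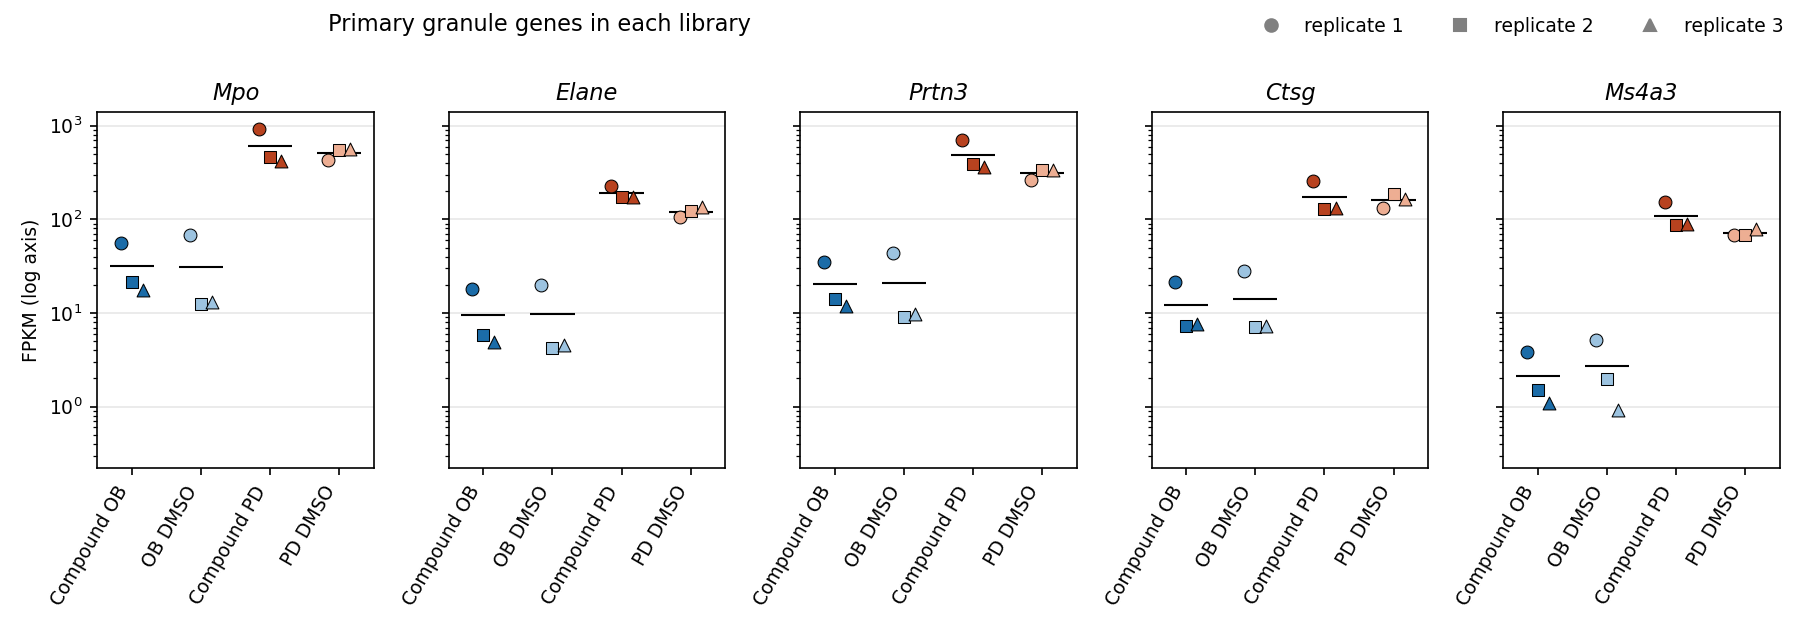
FPKM on a log axis of each gene in each library, with compound left of its DMSO in each set, marker shape for the replicate number and a line at the mean of 3. In the OB set replicate 1 lies above replicates 2 and 3 in both groups for all 5 genes, and PD set values such as those of Mpo (421.61 to 932.52 with compound PD) lie above the OB set values throughout.

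The order of levels was the same in all 6 OB libraries: Mpo, then Prtn3, Ctsg, Elane and Ms4a3. The 3 PD DMSO libraries had this order too. In compound PD replicates 2 and 3 Elane stood above Ctsg, while in compound PD replicate 1 Ctsg stood above Elane. Over libraries, neighbours in the order were not always separate: in PD DMSO the ranges of Ctsg and Elane overlapped and the other neighbours were apart. With compound OB all neighbours but Elane and Ms4a3 overlapped, and in OB DMSO all did. With compound PD, Mpo overlapped Prtn3, Elane overlapped Ctsg, and Ctsg overlapped Ms4a3.

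Summed over the 5 genes, the libraries held 134.57, 50.08 and 43.17 FPKM with compound OB and 166.05, 35.05 and 35.61 in OB DMSO. The sums in the PD set were 2268, 1237 and 1178 FPKM with compound PD and 995.4, 1272 and 1279 in PD DMSO. Set against Gata1 of the same library, which keeps the scaling of a library out, the sum was 77.1%, 33.2% and 28.9% of Gata1 with compound OB and 89.9%, 26.6% and 25.2% in OB DMSO. The corresponding shares were 1690%, 915% and 891% with compound PD and 699%, 952% and 952% in PD DMSO. The granule sum was therefore below the level of Gata1 in all 6 OB libraries and several times above it in all 6 PD libraries. Set, compound, dose and preparation go together between the sets, so they cannot be told apart there.

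The widest spread of these genes within the OB set was between replicate numbers, not between compound and control. Replicate 1 of compound OB was 2.89-fold the mean of replicates 2 and 3 for Mpo, 3.37-fold for Elane, 2.68-fold for Prtn3, 2.88-fold for Ctsg and 2.93-fold for Ms4a3. In OB DMSO the same ratios were 5.35, 4.56, 4.63, 3.93 and 3.64. All 5 genes were thus over 2-fold higher in replicate 1 of both groups, whereas 2.31% of 10072 genes were so with compound OB and 6.73% in OB DMSO. In the PD set replicate 1 of compound PD was 1.30-fold (Elane) to 2.11-fold (Mpo) the mean of the other 2, and replicate 1 of PD DMSO was 0.752-fold (Ctsg) to 0.907-fold (Ms4a3). For all 5 genes replicate 1 was the highest compound PD library and the lowest PD DMSO library.

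Compound OB against its DMSO gave no call for these genes. With limma on log2(FPKM + 1) over all 6 libraries, 0 of the 5 had a Benjamini-Hochberg adjusted p under 0.05, and neither did any of 10073 genes tested (0% called, 372 genes at an unadjusted p under 0.05). None of the 5 had an unadjusted p under 0.05, and none had separate groups, as 5.31% of all genes had with compound OB above and 3.42% with it below. The log2 fold changes were 0.29 ± 0.72 (SE) for Mpo, 0.09 ± 0.66 for Elane, 0.17 ± 0.65 for Prtn3, -0.10 ± 0.60 for Ctsg and -0.16 ± 0.49 for Ms4a3. Adjusted p was 1.00 for each in limma, and between 0.476 and 0.706 when libraries were compared within their replicate numbers, a fit that called 7 of all genes (0.0695%). The SE are wider than the changes, since each group mixes a high replicate 1 with 2 low libraries. Log2(FPKM + 1) understates the change of Ms4a3, whose values here are low.

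Within same-numbered pairs of the OB set, the ratio of compound to control was on the other side of 1 in replicate 1 than in replicates 2 and 3 for 4 of the 5 genes. For Mpo it was 0.825 in replicate 1, 1.69 in replicate 2 and 1.36 in replicate 3. Prtn3 gave 0.795, 1.55 and 1.21, Elane 0.891, 1.36 and 1.06, and Ctsg 0.758, 1.03 and 1.04. For Ms4a3 the ratios were 0.727, 0.769 and 1.20. All 5 genes were lower with compound OB in replicate 1, while Mpo, Prtn3, Elane and Ctsg were higher with it in replicates 2 and 3, Ctsg by little.

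With replicate 1 left out of both OB groups, a comparison added after seeing the data, 2 of the 5 genes were called higher with compound OB. Mpo was higher by 0.57 ± 0.10 on the log2 scale, 1.48-fold (limma adjusted p = 3.704e-06, n = 2 each). Prtn3 was higher by 0.42 ± 0.11, 1.34-fold (limma adjusted p = 0.001497, n = 2 each). With 2 libraries a group, these SE and p-values rest mostly on the spread of all genes, which limma pools. They do not measure the spread of Mpo or Prtn3 alone. In the pair left out both genes were lower with compound OB, at ratios of 0.825 for Mpo and 0.795 for Prtn3. Within replicate numbers, a fit that called 9.72% of genes as higher, both remained past the threshold, with limma adjusted p = 0.00908 for Mpo and 0.03308 for Prtn3. Elane had 0.22 ± 0.12 (limma adjusted p = 0.22), Ctsg 0.04 ± 0.11 (0.87) and Ms4a3 -0.05 ± 0.15 (0.87). In these 4 libraries limma called 15.4% of 9967 genes as higher with compound OB and 17.8% in either direction, so such calls were frequent. Megakaryocyte markers were higher beside them, in 9 of 10 with 5 called higher and 1 lower, at a median log2 change of 0.28, against 0.22 for the 5 granule genes and 0.06 for all genes. All 5 tested mast cell and basophil markers were higher, with 1 called. The part of these cells in the granule calls was not tested. With all 6 libraries neither Mpo nor Prtn3 was called.

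Compound PD against its DMSO gave higher means for all 5 genes, with separate groups for Elane, Prtn3 and Ms4a3, but 0 of the 5 passed the adjusted threshold. Limma called 3 of 11901 genes (0.0252%), with 1268 at an unadjusted p under 0.05. Elane averaged 190.8 ± 30.5 FPKM with compound PD and 120.5 ± 14.5 in PD DMSO (SD, n = 3 each), a log2 fold change of 0.65 ± 0.17 (SE) or 1.57-fold. Its limma p was 0.00378 before and 0.208 after Benjamini-Hochberg adjustment, rank 216 of 11901 by p. The difference was larger than the spread within either group, yet it did not survive adjustment over all genes.

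Ms4a3 averaged 109.3 ± 36.7 FPKM with compound PD and 71.9 ± 6.73 in PD DMSO (SD, n = 3 each), with a log2 fold change of 0.55 ± 0.22 (SE). Its limma p was 0.0355 before and 0.418 after Benjamini-Hochberg adjustment. Prtn3 averaged 482.6 ± 188.3 FPKM with compound PD and 313.2 ± 44.6 in PD DMSO, with a log2 fold change of 0.57 ± 0.25. Its limma p was 0.0479 before and 0.463 after Benjamini-Hochberg adjustment. For both, the SD with compound PD was close to or above the gap between the means, and replicate 1 was the highest compound PD library. Mpo averaged 605.7 ± 283.8 FPKM with compound PD and 514.8 ± 75.1 in PD DMSO, a log2 fold change of 0.15 ± 0.28 (limma adjusted p = 0.945). Ctsg averaged 172.5 ± 74.3 FPKM with compound PD and 161.8 ± 27.8 in PD DMSO, 0.03 ± 0.27 on the log2 scale (limma adjusted p = 0.993). For Mpo and Ctsg the difference was smaller than the spread within the groups.

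Groups did not overlap for 3 of the 5 genes, with compound PD above, against 13.1% of all 11901 genes that were above in this way and 3.71% that were below. An exact permutation test of 3 against 3 libraries cannot give a two-sided p under 0.1. The 5 log2 changes had a median of 0.55, against 0.06 for all genes tested, of which 7032 were higher and 4869 lower with compound PD (5470 and 6431 with median-ratio scaling). All 5 were above 0 as deposited, but Ctsg was at -0.07 with median-ratio scaling. Without compound PD replicate 1 the changes were -0.21 for Mpo, 0.53 for Elane, 0.27 for Prtn3, -0.30 for Ctsg and 0.29 for Ms4a3. Without PD DMSO replicate 1 they were 0.02, 0.56, 0.44, -0.11 and 0.51 in the same order, and the limma adjusted p of Elane was 0.10, the lowest of a range that reached 0.742 over its alternatives.

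**Figure D2:**
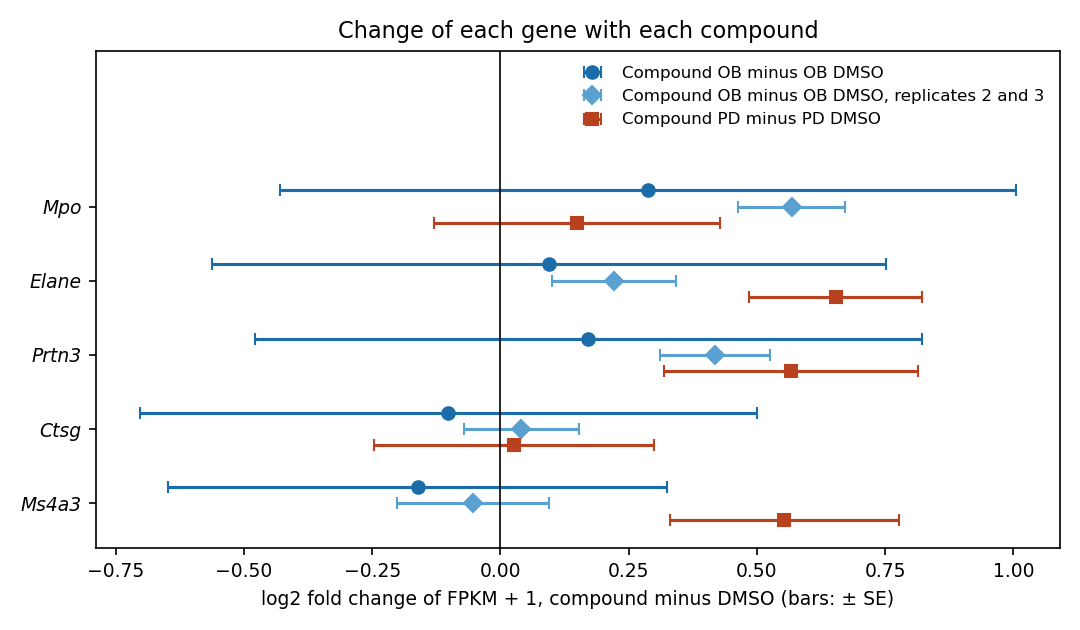
Log2 fold change of FPKM + 1 of each gene, compound minus DMSO, with bars of ± 1 SE from limma, for compound OB with all libraries, compound OB with replicates 2 and 3 only, and compound PD. The OB bars shrink when replicate 1 is left out (Mpo 0.29 ± 0.72 with it and 0.57 ± 0.10 without), and Elane, Prtn3 and Ms4a3 sit farthest right for compound PD.

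The effects of the compounds were not shown to differ. In 1 limma fit of the 12 libraries, the compound OB effect minus the compound PD effect was 0.14 ± 0.84 for Mpo, -0.56 ± 0.72 for Elane, -0.39 ± 0.75 for Prtn3, -0.13 ± 0.71 for Ctsg and -0.71 ± 0.55 for Ms4a3 on the log2 scale. Adjusted p lay between 0.943 and 1.00, and limma called 0 of the 10323 genes tested (0% called, 765 at an unadjusted p under 0.05). The 5 genes were also absent from the 765. With SE between 0.55 and 0.84, the test does not show that the compounds acted alike. Doses of the compounds differed (100 µM and 3 nM), as did the sets.

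Within the granule sum of the PD set, the shares of Prtn3, Mpo and Ctsg did not overlap between the groups. Prtn3 made up 30.8% to 31.2% of the 5-gene sum with compound PD and 26.3% to 26.6% in PD DMSO. Mpo made up 35.8% to 41.1% with compound PD and 43.0% to 43.8% in PD DMSO, and Ctsg 10.4% to 11.4% with compound PD and 12.9% to 14.8% in PD DMSO. The shares of Elane (9.96% to 14.8% with compound PD, 9.55% to 10.6% in PD DMSO) and of Ms4a3 (6.69% to 7.52% with compound PD, 5.40% to 6.76% in PD DMSO) overlapped between the groups. A share within a library does not depend on how the library was scaled. Shares of 1 sum depend on each other, since a higher share of Prtn3 lowers those of the rest. The 3 separations are therefore not independent, and a background over other sets of 5 genes was not computed.

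The ratio of Prtn3 to Mpo was 0.750, 0.833 and 0.860 in compound PD replicates 1 to 3, against 0.611, 0.608 and 0.606 in PD DMSO. The 3 controls were nearly identical although PD DMSO replicate 1 stood apart in other genes, and all 3 compound libraries were above them. Ms4a3 to Mpo was 0.163, 0.189 and 0.210 with compound PD, against 0.157, 0.124 and 0.142 in PD DMSO. A ratio to Mpo above all controls was found for 2.76% of 11900 other genes, and below all controls for 1.42%.

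Relative to Ctsg, 3 genes were separate between the PD groups. Prtn3 to Ctsg was 2.71, 3.00 and 2.77 with compound PD, against 1.97, 1.80 and 2.06 in PD DMSO. Elane to Ctsg was 0.875, 1.34 and 1.34 with compound PD, against 0.796, 0.646 and 0.816 in PD DMSO. Ms4a3 to Ctsg was 0.587, 0.682 and 0.678 with compound PD, against 0.507, 0.366 and 0.483 in PD DMSO. All 3 genes were higher relative to Ctsg in every compound PD library. A ratio to Ctsg above all controls was found for 5.21% of 11900 genes. Of the 10 pairs of the 5 genes, 5 had separate ratios between the PD groups and 1 between the OB groups. That 1 pair was again Prtn3 and Ctsg, at 1.62, 1.93 and 1.56 with compound OB, against 1.54, 1.28 and 1.33 in OB DMSO, where 0.417% of 10072 genes had all compound libraries above all controls. Its lowest compound OB value and highest OB DMSO value nearly touched. Ratios were examined after the values were seen, and no test was made of them. The 10 pairs share the 5 genes, and a background over all gene pairs was not computed.

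**Figure D3:**
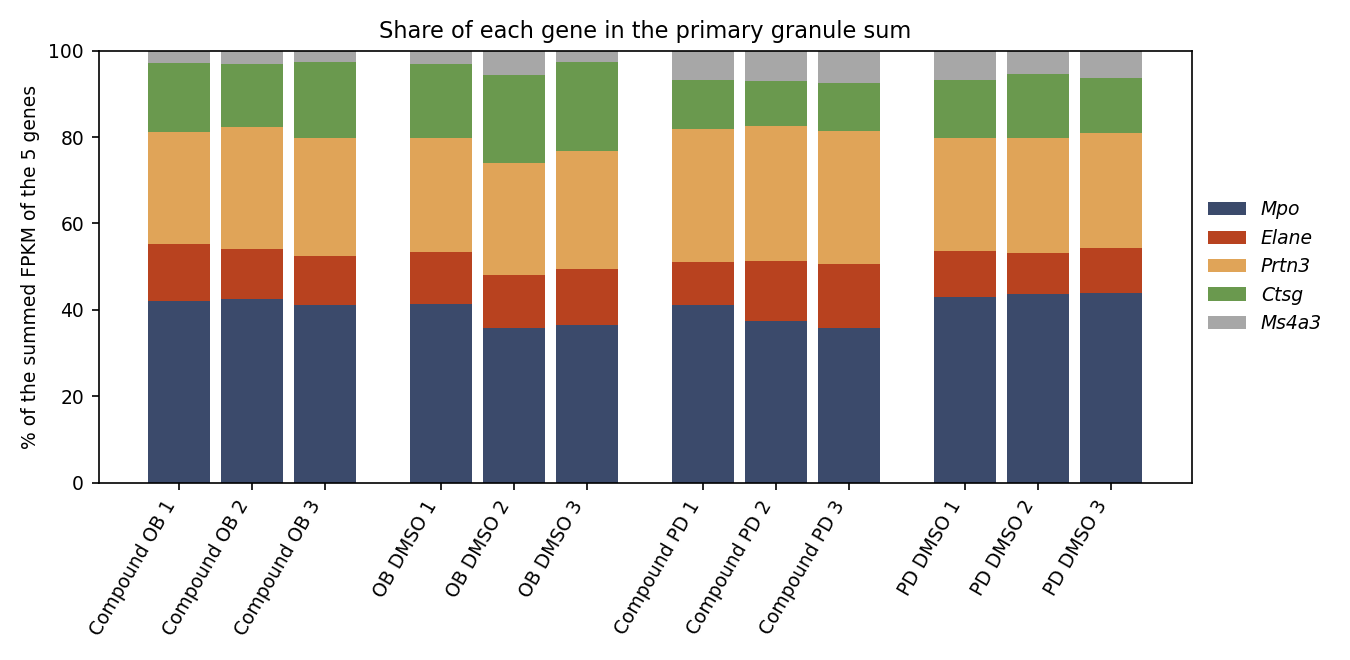
Share of each gene in the summed FPKM of the 5 genes (percent, stacked bars from 0) in each of the 12 libraries, with compound libraries left of their DMSO controls. The Prtn3 share is 30.8% to 31.2% with compound PD and 26.3% to 26.6% in PD DMSO, while the Mpo share is lower with compound PD.

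With all libraries and no replicate block, other genes of the primary granule and its making held no call either. Of 16 such genes 14 were tested in OB libraries and 15 in PD libraries, and limma called 0 in either set. In the PD set 14 of the 15 were higher with compound PD, 12 with median-ratio scaling, with a median log2 change of 0.45 (0.36 with median-ratio scaling). Serglycin (Srgn), which stores elastase in the granule, had 464.62, 347.42 and 371.14 FPKM with compound PD, against 365.33, 307.34 and 290.83 in PD DMSO (limma log2 0.29, adjusted p = 0.600). Ctsc, the protease activator, was chosen for its role after its values were seen and had 30.78, 26.64 and 30.78 FPKM with compound PD, against 14.79, 21.35 and 21.10 in PD DMSO (0.61, adjusted p = 0.278). The Ctsc groups were separate and those of Srgn were not.

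Lysozyme (Lyz2), found in granules of neutrophils and in monocytes, had 1656, 2022 and 2234 FPKM with compound PD, against 593.9, 1053 and 1048 in PD DMSO (limma log2 1.17, adjusted p = 0.139). Its groups were separate. It was the 1 gene of this list called without PD DMSO replicate 1 (log2 0.90, limma adjusted p = 0.0295). It was also the 1 called with all libraries and the replicate block (limma adjusted p = 0.00978), though PD replicate numbers did not pair. In the OB set the 14 tested genes had a median of 0.06, against 0.03 for all genes. Without replicate 1 of both OB groups 11 of the 14 were higher, as were 6273 of all 9967 genes, at a median of 0.17 against 0.06 for all genes. Limma called 2 of the 14 as higher, in a fit that called 15.4% of all genes as higher. They were Ctsc (log2 0.39, adjusted p = 0.00219) and Man2b1, a lysosomal mannosidase (0.36, adjusted p = 0.0115). Srgn in the OB set had 129.71, 82.41 and 90.45 FPKM with compound OB, against 136.92, 76.75 and 81.12 in OB DMSO, high in replicate 1 of both groups as the 5 genes were.

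Of the 10 inhibitors of granule proteases, 6 were tested in the PD set and none was called by limma, with a median log2 change of 0.49. Serpinb1a, an inhibitor of elastase, proteinase 3 and cathepsin G, had 339.29, 193.58 and 225.42 FPKM with compound PD, against 158.83, 131.86 and 141.98 in PD DMSO (limma log2 0.77, adjusted p = 0.235). Every compound PD library was above the controls. Serpinb1a in the OB set had 3.79, 2.09 and 1.85 FPKM with compound OB, against 5.63, 1.20 and 1.78 in OB DMSO, overlapping and again highest in replicate 1. Without replicate 1 of both OB groups limma called 1 inhibitor as higher, the cystatin Cst7, and 1 as lower, Serpinb6a, of 4 tested. Of all genes that fit called 15.4% as higher and 2.42% as lower.

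The transcription regulators of granulocytes and monocytes held no limma call in either set with all libraries (12 tested in the PD set, 7 in the OB set). All 12 were higher with compound PD, also with median-ratio scaling, at a median log2 change of 0.51. Cebpe, a factor of late granule genes, had 80.18, 64.74 and 66.07 FPKM with compound PD, against 26.52, 34.06 and 44.42 in PD DMSO (limma log2 1.01, adjusted p = 0.144). Spi1, which encodes PU.1, had 67.98, 65.55 and 61.97 FPKM with compound PD, against 23.87, 39.54 and 46.09 in PD DMSO (0.87, adjusted p = 0.224). Both had separate groups. Spi1 in the OB set had 9.31, 1.82 and 1.84 FPKM with compound OB, against 13.19, 1.25 and 1.82 in OB DMSO, a replicate 1 excess like that of the granule genes. Limma called the regulator Id2 as higher without PD DMSO replicate 1 (log2 0.91, adjusted p = 0.0256). Without replicate 1 of both OB groups it called, of 6 tested, Cebpb as higher (0.65, adjusted p = 3.21e-08) and Cebpa, a factor of early granulocyte fate, as lower (-0.59, adjusted p = 0.00037). That fit called 15.4% of all genes as higher and 2.42% as lower.

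Markers of other cells had mean differences beside the 5 genes in the PD set, and their part in the differences above was not tested. Of 15 secondary and tertiary granule genes, which later granulocytes make, 15 were higher with compound PD at a median log2 change of 1.00, and the groups of 12 did not overlap, against 13.1% of all genes with compound PD above in this way. Their sum lay between 28840 and 38240 FPKM with compound PD and between 11160 and 17250 in PD DMSO. Most of it was S100a8 and S100a9 in every library, so the sum says little about the other genes of the list. S100a9 had 14066, 14088 and 17904 FPKM with compound PD, against 5146, 7881 and 7528 in PD DMSO. S100a8, a calcium-binding protein of neutrophils and monocytes, had 9371, 9692 and 12177 FPKM with compound PD, against 3788, 5222 and 4939 in PD DMSO (limma log2 1.17, adjusted p = 0.0825). Unlike Mpo, S100a8 was not highest in compound PD replicate 1.

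Of 13 tested receptor and surface genes of granulocyte and monocyte progenitors, 12 were higher with compound PD (sum 1501 to 1608 FPKM with it and 820.7 to 1084 in PD DMSO). Monocyte and macrophage markers were higher in 8 of 8 tested (1730 to 2321 FPKM with compound PD, and 623.7 to 1113 in PD DMSO). Most of these sums was Lyz2, which is also among the other primary granule genes above, so they say little about monocytes. The macrophage genes C1qa, C1qb, C1qc and Mrc1 were among the 6 too low to test and were below 1 FPKM in all 6 libraries. Megakaryocyte markers were higher in 10 of 10 (4647 to 8044 FPKM with compound PD, and 2556 to 4994 in PD DMSO). Mast cell and basophil markers were higher in 9 of 11 (1997 to 3970 FPKM with compound PD, and 1305 to 2399 in PD DMSO). Most of these sums was Cpa3, Cma1 and Mcpt4. The 2 lower genes were Mcpt8 and Prss34. Mcpt8 had 5.42, 17.67 and 14.97 FPKM with compound PD, against 2.63, 27.96 and 31.05 in PD DMSO. Prss34 had 2.60, 2.96 and 2.37 FPKM with compound PD, against 1.30, 31.79 and 31.45 in PD DMSO. With all 6 libraries and no replicate block limma called none of the genes in these lists. Without PD DMSO replicate 1 it called 165 of 11955 genes (1.38%), among them 6 of the 15 secondary and tertiary granule genes and 6 of the 10 megakaryocyte markers as higher with compound PD (1.08% of all genes were), 1 of the 15 other primary granule genes as higher, and 0 of the 5 granule genes. The 6 secondary and tertiary granule genes were S100a8, S100a9, Camp, Hp, Anxa1 and Ltb4r1, and the 6 megakaryocyte markers Gp9, Gp1ba, Vwf, Treml1, Itga2b and Cd9. Ly6c2 and Tyrobp, of the receptor and surface list, were also called higher, and of the mast cell and basophil markers Prss34 was called lower. With all 6 libraries and the replicate block, limma called 41 of 11901 genes (0.345%), though PD replicate numbers did not pair. Among them were 7 of the 15 secondary and tertiary granule genes, and 1 each of the monocyte, megakaryocyte and mast cell lists. The monocyte gene was Lyz2, whose call was given above with the other primary granule genes.

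Eosinophil markers were lower with compound PD in 5 of 8 tested, 7 of 8 with quantile normalization, and their sum was 94.92, 101.1 and 99.08 FPKM with compound PD, against 41.61, 295.4 and 296.2 in PD DMSO. All 3 compound PD libraries lay between the low PD DMSO replicate 1 and the other controls. With all libraries their median log2 change was -0.50 and limma called none. Without PD DMSO replicate 1 it was -1.27, with 7 of 8 lower, and limma called 4 as lower, against 0.301% of all genes. They were Prg2 (log2 -1.49, adjusted p = 0.00725) and Prg3 (-1.54, adjusted p = 0.0308), which encode granule proteins of eosinophils, and Ear1 and Ear6, ribonuclease genes with close copies between which reads may be split. Without compound PD replicate 1 the median was -0.39, with 7 of 8 lower and none called.

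Erythroid markers were lower in 14 of 16 with compound PD, at a median log2 change of -0.24, summing to between 2832 and 3831 FPKM with it and between 3755 and 6582 in PD DMSO. Their highest sum belonged to PD DMSO replicate 1, in which Slc4a1, the red cell anion exchanger, had 1441 FPKM, against 411.6 and 419.0 in the other PD DMSO libraries. Without that library the erythroid median was -0.07, with 7 of 16 higher, and the median of the 5 granule genes was 0.44.

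In the OB set secondary granule, monocyte and megakaryocyte sums were highest in replicate 1 of both groups. Secondary and tertiary granule genes summed to 373.9, 130.1 and 150.6 FPKM with compound OB, against 441.2, 127.6 and 122.5 in OB DMSO. Most of each sum was S100a8 and S100a9. Monocyte and macrophage markers summed to 26.27, 11.90 and 13.70 FPKM with compound OB, against 35.83, 14.03 and 12.24 in OB DMSO, and most of each sum was Lyz2. Megakaryocyte markers summed to 1079, 637.5 and 684.4 FPKM with compound OB, against 1520, 536.2 and 632.0 in OB DMSO. Erythroid markers summed to between 3757 and 4313 FPKM with compound OB and between 3745 and 4147 in OB DMSO, so the replicate 1 excess seen in the granule list was small there. Medians of the lists lay between -0.28 (eosinophil, 1 gene tested) and 0.11 (erythroid, 16 genes). Without replicate 1 of both groups they lay between -0.26 (eosinophil) and 0.28 (megakaryocyte). In that fit, where limma called 15.4% of all genes as higher and 2.42% as lower with compound OB, megakaryocyte markers called higher included Itga2b, Treml1, Vwf and Gp1ba, and Cd9 was called lower. Kit, Zfpm1 and Epor of the erythroid list were called higher and Tfrc lower. Also called higher were Camp of the secondary granule, Csf2ra of the receptor list and Il4 of the mast cell and basophil list.

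**Figure D4:**
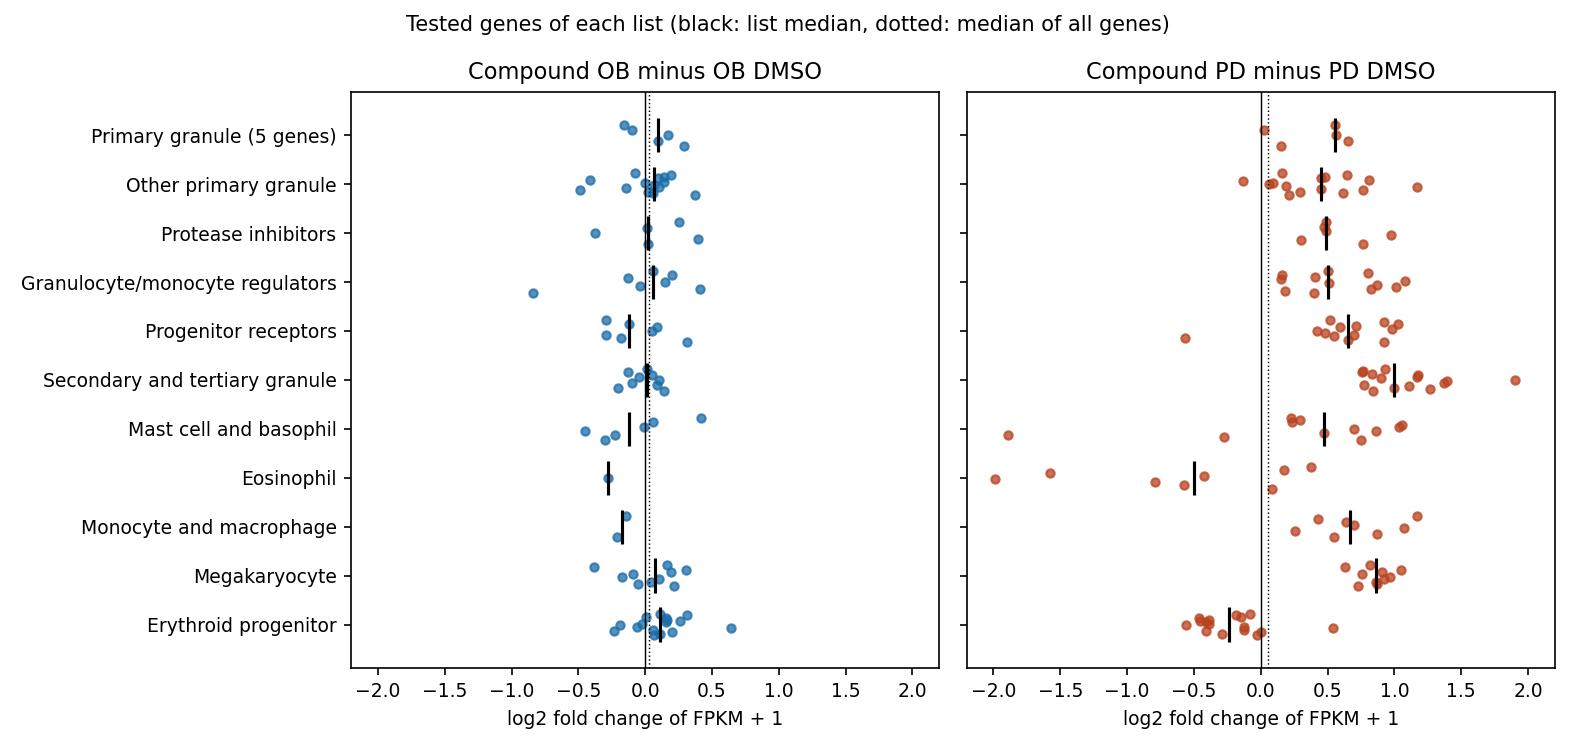
Log2 fold change of FPKM + 1 of each tested gene of each list, compound OB minus OB DMSO on the left and compound PD minus PD DMSO on the right, with a black bar at the list median and a dotted line at the median of all genes. With compound PD the medians of the primary, secondary and tertiary granule lists lie to the right (1.00 for secondary and tertiary granule genes). The eosinophil median lies at -0.50 and the erythroid median at -0.24. With compound OB the medians lie between -0.28 (eosinophil, 1 gene) and 0.11 (erythroid).

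The genes whose pattern was most like that of the 5 were found by Pearson correlation with their mean, on log2(FPKM + 1) with each set centred on its own mean, over 12 libraries and 7187 genes listed in both sets with at least 5 FPKM in each. They were Nab1 (r = 0.978), Orai2 (0.977), Inpp5d (0.977), Dap (0.972), Alox5 (0.970) and Pdcd6ip (0.969). Orai2 encodes a calcium channel subunit, Inpp5d the inositol phosphatase SHIP1 of blood cells, and Alox5 the 5-lipoxygenase that begins leukotriene synthesis. Inpp5d had 18.90, 10.63 and 9.77 FPKM with compound OB, against 20.34, 8.15 and 8.23 in OB DMSO. Its PD set values were 64.80, 49.67 and 52.52 FPKM with compound PD, against 36.55, 45.44 and 48.25 in PD DMSO. As with Mpo, its high libraries were replicate 1 of both OB groups and of compound PD. All points share their libraries, and the high replicate 1 of the OB set weighs on each r.

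Genes beside the Prtn3 and Elane locus were read after the values were seen. Plppr3, listed in the PD set, had 15.11, 13.88 and 12.08 FPKM with compound PD, against 6.75, 5.80 and 7.63 in PD DMSO (limma log2 0.93, adjusted p = 0.152), with separate groups. Cfd, complement factor D, was at most 0.09 FPKM with compound OB and 0.10 in OB DMSO, and at most 0.35 with compound PD and 0 in PD DMSO. R3hdm4 had 150.38, 124.21 and 112.90 FPKM with compound PD, against 93.23, 87.95 and 98.92 in PD DMSO (0.46, adjusted p = 0.325). Ptbp1 overlapped between the PD groups, at 225.77, 213.03 and 193.97 FPKM with compound PD, against 153.83, 256.28 and 251.34 in PD DMSO. The counting of strand is not given in the sources used here, so reads of overlapping genes cannot be assigned with certainty.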

How the data were processed

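RNA was sequenced in 12 libraries of 4 groups, 3 each. The authors deposited FPKM values per gene and library; per the submitters' processing notes, STAR and mm10 were used. Not given in the sources used here: STAR's version, how FPKM were computed, the annotation and the use of strand. Depth is unknown without counts, so the SD over libraries stands for the precision.

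In the OB set 428 of 24054 entries were left out because a name was split at a hyphen, which displaced values, or repeated, and 27 because the name had become a date. In the PD set 93 repeats and 27 dates of 54752 entries were left out. Genes averaging 1 FPKM or more in the libraries compared were tested on log2(FPKM + 1) with limma 3.58.1 (R 4.3.3, statmod 1.5.0, mean-variance trend, robust moderation), two-sided, with Benjamini-Hochberg adjustment over all genes tested and a threshold of 0.05. The script was tested on simulated data. Tables and figures used Python 3.11.15, pandas 2.3.3, numpy 2.4.6 and matplotlib 3.10.9.

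Same-numbered libraries deviated together from their group means in the OB set (correlations 0.831, 0.434 and 0.652). Among replicates 2 and 3 unlike numbers also deviated together (0.413 and 0.327), so a pairing was clear only for replicate 1. The labels state no pairing, and blocked values are given where they matter.

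The members and gene lists were chosen with earlier results of these data known. Named genes are the 5 members, up to 4 genes of the highest mean in each list, any list gene called, and the 6 most alike in pattern. Outside this rule, Ctsc, Gata1, C1qa, C1qb, C1qc, Mrc1, Mcpt8, the locus neighbours and list genes called only with libraries left out were named after their values were seen. Siglecf and Adgre1 were found under older symbols in the OB set. Alternatives were the pseudocount, the filter, scaling, moderation, the replicate block, pooled spread and libraries left out.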

Additional observations from a re-analysis of the deposited data

How the results depend on the processing

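With compound OB the count of called genes, 0 of all tested, was 1 with a pseudocount of 5, 7 with the replicate block, 104 with the block and median-ratio scaling, 1 with the spread pooled over both sets, and 0 to 14 with 1 library left out (14 without OB DMSO replicate 1). Leaving out a replicate number from both groups, added after seeing the data, gave 1773 without replicate 1, and 1133, 146 and 3 with the block and without replicates 1, 2 and 3. With compound PD the count of 3 was 1 with a pseudocount of 5, 0 without the filter, 41 with the replicate block, 0 with the block and median-ratio scaling, 29 with pooled spread, and 0 to 165 with 1 library left out (165 without PD DMSO replicate 1). PD replicate numbers did not pair (correlations -0.006, -0.029 and -0.022). For the difference between effects, 0 became 3 with a pseudocount of 0.1, 3 without the filter and 0 to 15 with 1 library left out (15 without PD DMSO replicate 1).

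The count of the 5 granule genes called was 0 in every alternative run but 1 case, 2 (Mpo and Prtn3) without replicate 1 of the OB set, with or without the block. With 1 library left out, the compound OB changes ranged between -0.21 and 1.07 for Mpo, -0.43 and 0.75 for Elane, -0.28 and 0.87 for Prtn3, -0.57 and 0.51 for Ctsg and -0.55 and 0.30 for Ms4a3, so each changed sign. Without replicate 1 of both groups Ctsg was 0.041, and without replicate 2 Elane was -0.043 and Prtn3 -0.033, blocked or not. With compound PD, Ctsg was -0.068 with median-ratio scaling, blocked or not, and ranged between -0.30 and 0.20, and Mpo between -0.21 and 0.36, with 1 library left out, while Elane, Prtn3 and Ms4a3 stayed positive. The difference between effects ranged between -0.36 and 0.92 for Mpo, -1.09 and 0.10 for Elane, -0.85 and 0.31 for Prtn3 and -0.60 and 0.48 for Ctsg with 1 library left out, and was 0.015 for Ctsg without replicate 1 of the OB set. The causes were not tested. With 3 libraries a group and unknown depth, a missed threshold does not show that levels were alike.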
